A study of Mus musculus with 12 samples.

Results

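The genes described here are 45 cell cycle and mitosis genes of the mouse, chosen by name as regulators and machinery of DNA replication and cell division, and measured in brown adipose tissue. A member counted as measured where a probe set of the array was annotated with its symbol alone, and the brightest such probe set over the 12 arrays stood for the gene. This gave 43 measured members among the 22180 genes of the array. Ccne2 and Ccnb1 had no such probe set and have no value here. The tissue came from male mice, 10 weeks old and fed standard chow, in 4 groups of 3 arrays each: Zbtb7b knockout (KO) mice kept at 4 °C for 4 h, wild-type (WT) mice kept at 4 °C for 4 h, KO mice at 22 °C and WT mice at 22 °C. The strain, the design of the knockout allele and the cells that carry it were not given in the sources used here. The titles call the arrays of a group biological replicates, whereas the description field numbers them as pools and names liver and another knockout. The p-values therefore measure the spread between these samples, whatever each of them pooled.

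Zbtb7b encodes a zinc finger transcription factor, and brown fat is the tissue that burns fuel for heat in the cold. The genes of this set follow the order of a cell division. E2F factors switch on the genes of S phase, the licensing factors Cdc6 and Cdt1 load the MCM helicase onto DNA, and cyclin B with Cdk1 then drives mitosis, which ends with the spindle midzone and the cleavage furrow pulling daughter cells apart. Mature brown adipocytes do not divide, so in this tissue these transcripts are usually looked for in adipocyte precursors, endothelial cells and immune cells, and they are scarce in a resting adult.

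All values are log2 signals as deposited, and all differences are differences of mean log2 signals. The median signal of an array lay between 2.63 and 2.83, and arrays of a group correlated with each other at 0.970 to 0.985 over all genes. Zbtb7b itself read 2.96, 3.38 and 3.01 on KO cold arrays against 4.36, 4.26 and 4.63 on WT cold arrays. Zbtb7b gave 3.62, 3.50 and 3.30 on KO room temperature arrays against 4.47, 4.52 and 4.76 on WT room temperature arrays, lower on every KO array than on every WT array. The brown adipocyte list averaged 9.01 to 10.57 per array, and the hepatocyte gene Alb, checked because the description field names liver, read 1.20 to 2.75. The skeletal muscle list ran over 3.09 to 9.13 per array, with arrays far apart within every group, and the neutrophil list was highest on KO cold array 3, at 3.75.

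The mean of the 43 members was low in KO and high in WT tissue after cold exposure, and the other way round at room temperature. Per array it was 3.53, 3.56 and 3.52 on KO cold arrays against 3.70, 3.85 and 3.84 on WT cold arrays. The members gave 3.74, 3.79 and 3.81 on KO room temperature arrays against 3.51, 3.40 and 3.62 on WT room temperature arrays. The groups did not overlap at either temperature, and within a group the arrays differed less than the groups did: the means ± SD (n = 3 arrays each) were 3.54 ± 0.02 in KO cold and 3.80 ± 0.08 in WT cold, and 3.78 ± 0.04 in KO and 3.51 ± 0.11 in WT at room temperature. In 29 members the KO mean lay above the WT mean at room temperature and below it in the cold, an order found in 23.3% of all genes. Of the 4 group means of a member, the highest was that of WT cold in 23 members and that of KO at room temperature in 12, and the lowest was that of KO cold in 19 and that of WT at room temperature in 19. In bulk tissue fewer cycling cells and less of these RNAs per cell cannot be told apart.

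**Figure D1:**
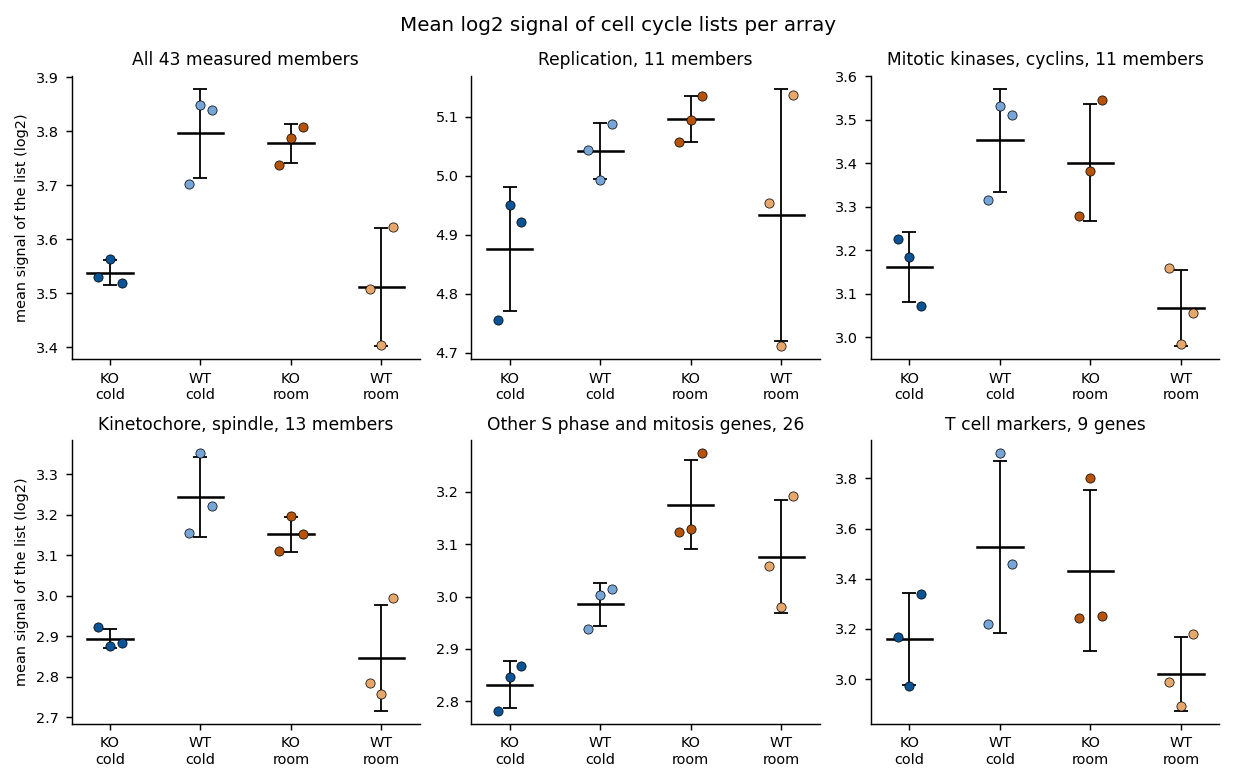
Mean log2 signal per array of 6 gene lists, each on its own y axis that does not start at 0, with the groups KO cold, WT cold, KO room temperature and WT room temperature on the x axis, 1 point per array, and a bar and whiskers for the group mean ± SD (n = 3). The 43 members stand lower on the KO cold arrays than on the WT cold arrays and higher on the KO room temperature arrays than on the WT room temperature arrays, and the mean of 9 T cell markers has its group means in the same order.

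Most of these transcripts gave weak signals. The mean over 12 arrays was at least 4 in 13 members and under 4 in 30, against 10257 and 11923 of all genes, and 24 members stayed under 4 in the mean of every group. A difference is called dim below where both group means lie under 4, and it is then given without a fold, since a weak signal holds a large share of background. A member was called changed where limma's moderated test gave an adjusted p under 0.05 over all 22180 genes. Of the 43 members, 1 was called between KO and WT in the cold, lower in KO (all genes, lower in KO: 0.550%), and 0 at room temperature, where 0.550% of all genes were called and 11 members had an unadjusted p under 0.05 (all genes 11.4%). The cold called 6 members in KO (14%, against 19.2% of all genes) and 10 in WT (23.3%, against 17.4%). Averaged over both genotypes it called 9 members (20.9%, against 27.2%). The genotype difference averaged over both temperatures called 0 of 43 (1.63% of all genes), with 5 members at an unadjusted p under 0.05 (all genes 14.7%). The shares of members called for cold against room temperature are set against genes of like signal. Among those with a mean under 4, 2 of 30 members passed in KO (6.67%, against 4.92% of all such genes) and 6 in WT (20%, against 4.41%). Among those of at least 4, 4 of 13 passed in KO and 4 in WT (30.8% in each, against 35.8% of all such genes in KO and 32.4% in WT).

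Among the G1 to S regulators, Ccne1 was lower and Cdt1 higher in the cold in WT tissue. Ccne1, cyclin E1, which activates Cdk2 for entry into S phase, read 2.66, 2.97 and 2.77 on KO cold arrays against 2.42, 2.77 and 2.47 on WT cold arrays. Ccne1 gave 3.59, 3.15 and 2.82 on KO room temperature arrays against 3.17, 3.13 and 3.75 on WT room temperature arrays. The cold arrays of WT all lay below those at room temperature, while the KO groups overlapped. Its dim difference, cold minus room temperature, was -0.38 ± 0.21 (SE, adjusted p = 0.265) in KO and -0.80 ± 0.21 (SE, adjusted p = 0.0222) in WT, and -0.59 ± 0.15 (SE, adjusted p = 0.0108) averaged over both. Cdt1, which loads the MCM helicase at origins, read 3.88, 4.10 and 4.08 on KO cold arrays against 4.05, 4.35 and 4.33 on WT cold arrays. Cdt1 gave 3.79, 4.66 and 4.16 on KO room temperature arrays against 3.45, 3.71 and 3.51 on WT room temperature arrays. Here WT arrays at room temperature were the low ones. They overlapped with no other group, and cold against room temperature gave -0.18 ± 0.19 (SE, adjusted p = 0.604) in KO and 0.68 ± 0.19 (SE, adjusted p = 0.0296) in WT, 1.61-fold higher. KO minus WT at room temperature was 0.64 ± 0.19 (SE, adjusted p = 0.201). The WT call of Ccne1 ended without WT room temperature array 3 or WT cold array 1 or 3 (adjusted p = 0.0766 to 0.0847). Ccne1 also lost this call with the T cell list mean as a covariate or with KO cold array 3 and WT cold array 1 both left out (adjusted p = 0.0575 to 0.0942), in a range of 0.0125 to 0.0942 over all alternatives. That pair was picked with the data in view: KO cold array 3 had the most neutrophil signal, and WT cold array 1 was taken because its mean of the members was the lowest of its group. That of Cdt1 ended without WT room temperature array 1 or 3 or WT cold array 2 or 3 (adjusted p = 0.0779 to 0.1). Cdt1 also lost this call with the muscle list mean as a covariate or with the T cell list mean as a covariate (adjusted p = 0.072 to 0.358), in a range of 0.0091 to 0.358.

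The other G1 to S regulators did not pass in any comparison. Uhrf1, which keeps DNA methylation through replication, read 3.50, 4.36 and 4.16 on KO cold arrays against 3.59, 3.49 and 4.04 on WT cold arrays. Uhrf1 gave 4.39, 4.16 and 4.36 on KO room temperature arrays against 3.87, 4.45 and 4.57 on WT room temperature arrays, with overlapping groups. E2f8, a repressing member of the E2F family, read 3.89, 2.98 and 3.12 on KO cold arrays against 3.30, 3.17 and 3.48 on WT cold arrays. E2f8 gave 3.68, 3.17 and 2.65 on KO room temperature arrays against 2.63, 2.82 and 2.79 on WT room temperature arrays. The KO arrays were spread widely at both temperatures. All WT cold arrays lay above all WT room temperature arrays, by a dim 0.57, which passed only with the 6 WT arrays fitted alone (adjusted p = 0.0178). E2f1, an activator of S phase genes, ran over 2.58 to 3.25 on the 12 arrays, and Cdc6, the licensing partner of Cdt1, over 1.88 to 2.74. Among the 6 genes of this role the KO minus WT difference was above 0 in 4 of 6 at room temperature and below 0 in 3 of 6 in the cold.

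Subunits of the MCM replicative helicase fell in the cold, Mcm4 in both genotypes and Mcm5 and Mcm7 in KO. Mcm4 read 4.73, 4.84 and 5.22 on KO cold arrays against 5.13, 4.97 and 5.05 on WT cold arrays. Mcm4 gave 6.21, 6.31 and 6.11 on KO room temperature arrays against 5.83, 5.72 and 5.90 on WT room temperature arrays. Every cold array lay below every room temperature array in both genotypes. The cold difference was -1.28 ± 0.14 (SE, adjusted p = 8.45e-05) in KO, 2.43-fold lower, -0.77 ± 0.14 (SE, adjusted p = 0.00242) in WT, 1.7-fold lower, and -1.02 ± 0.10 (SE, adjusted p = 1.18e-05) averaged over both, and these calls held under all alternatives run. At room temperature the KO arrays of Mcm4 lay above the WT arrays, by 0.39 ± 0.14 (SE, adjusted p = 0.298). Mcm7 read 4.30, 5.06 and 5.02 on KO cold arrays against 5.16, 5.17 and 5.31 on WT cold arrays. Mcm7 gave 5.40, 5.69 and 5.53 on KO room temperature arrays against 5.56, 5.36 and 6.0 on WT room temperature arrays, lower on cold arrays than at room temperature in both genotypes. Its cold difference passed in KO, at -0.75 ± 0.21 (SE, adjusted p = 0.0259) or 1.68-fold lower, and averaged over both genotypes, at -0.59 ± 0.15 (SE, adjusted p = 0.0103), but not in WT, at -0.43 ± 0.21 (SE, adjusted p = 0.206). Mcm5 read 4.41, 4.43 and 4.35 on KO cold arrays against 4.71, 4.79 and 4.97 on WT cold arrays. Mcm5 gave 5.22, 4.70 and 5.10 on KO room temperature arrays against 4.75, 4.65 and 5.16 on WT room temperature arrays, with the KO cold arrays below all others. It fell in KO, with a difference of -0.61 ± 0.17 (SE, adjusted p = 0.0221) or 1.53-fold, and had -0.03 ± 0.17 (SE, adjusted p = 0.935) in WT. The KO call of Mcm7 ended without KO room temperature array 2 or 3 or KO cold array 1 (adjusted p = 0.0636 to 0.0912). Mcm7 also lost this call in the 6 arrays of the comparison alone or with the T cell list mean as a covariate (adjusted p = 0.0724 to 0.084), in a range of 0.012 to 0.0912. That of Mcm5 ended without KO room temperature array 1 or 3 or KO cold array 2 or 3 (adjusted p = 0.0503 to 0.0866). Mcm5 also lost this call after cyclic loess, in the 6 arrays of the comparison alone or with KO cold array 3 and WT cold array 1 both left out (adjusted p = 0.0544 to 0.0704), in a range of 0.0107 to 0.0866.

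Other replication genes were higher in the cold or did not pass. Mcm10, which helps convert the loaded helicase into a moving fork, read 3.05, 3.50 and 3.20 on KO cold arrays against 3.21, 2.94 and 2.72 on WT cold arrays. Mcm10 gave 2.82, 2.92 and 2.49 on KO room temperature arrays against 2.25, 2.32 and 2.23 on WT room temperature arrays. The cold arrays lay above the room temperature arrays within each genotype, by a dim 0.51 ± 0.17 (SE, adjusted p = 0.0531) in KO, 0.69 ± 0.17 (SE, adjusted p = 0.013) in WT and 0.60 ± 0.12 (SE, adjusted p = 0.0021) averaged over both, and the KO arrays lay above the WT arrays at room temperature, by 0.48 ± 0.17 (SE, adjusted p = 0.283). Averaged over both temperatures Mcm10 had the smallest p of the members between the genotypes, at 0.39 ± 0.12 (SE, adjusted p = 0.139). Its WT call ended without WT cold array 1 (adjusted p = 0.0642). Mcm10 also lost this call with the T cell list mean as a covariate or with KO cold array 3 and WT cold array 1 both left out (adjusted p = 0.0661 to 0.0712), in a range of 0.00772 to 0.0712. Mcm3 read 4.31, 4.34 and 5.0 on KO cold arrays against 4.67, 4.57 and 4.70 on WT cold arrays. Mcm3 gave 4.40, 4.18 and 4.38 on KO room temperature arrays against 4.02, 3.6 and 4.39 on WT room temperature arrays, and passed on the average of both genotypes alone, at 0.44 ± 0.15 (SE, adjusted p = 0.0493). That call ended without WT room temperature array 1 or 2, KO room temperature array 1, 2 or 3, WT cold array 1, 2 or 3 or KO cold array 3 (adjusted p = 0.0676 to 0.112). Mcm3 also lost this call with every probe set tested on its own, with a trended and robust spread, with the muscle list mean as a covariate, with the T cell list mean as a covariate or with KO cold array 3 and WT cold array 1 both left out (adjusted p = 0.0504 to 0.157), in a range of 0.0173 to 0.157. The difference of Mcm3 in WT, 0.65 ± 0.21 (SE, adjusted p = 0.0577), passed in 5 alternatives: with genes of a mean of at least 4, with array weights, with the replicate number as a block, without WT room temperature array 3 and without KO cold array 3 (adjusted p = 0.0227 to 0.0323). Mcm2 and Mcm6, the remaining helicase subunits, ran over 3.11 to 4.29 and 4.09 to 4.78, and did not pass.

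Pcna, the sliding clamp of the polymerases and also a repair factor, read 8.29, 8.55 and 8.63 on KO cold arrays against 8.54, 8.22 and 8.39 on WT cold arrays. Pcna gave 8.16, 8.34 and 8.48 on KO room temperature arrays against 8.16, 8.15 and 8.22 on WT room temperature arrays, a narrow range. Rrm1, the large subunit of ribonucleotide reductase, read 6.37, 6.53 and 6.33 on KO cold arrays against 7.07, 6.89 and 6.84 on WT cold arrays. Rrm1 gave 6.51, 6.59 and 6.62 on KO room temperature arrays against 6.63, 6.30 and 7.11 on WT room temperature arrays. All KO cold arrays lay below all WT cold arrays, with a difference of -0.52 ± 0.18 (SE, adjusted p = 0.202) in the cold and -0.31 ± 0.12 (SE, adjusted p = 0.259) averaged over both temperatures. Rrm2, the small subunit of that enzyme, was the single member with 2 probe sets of its own, and the one used ran over 3.56 to 4.57. Tyms, which makes thymidylate, ran over 4.69 to 6.01. None of these 4 passed in any of the 7 comparisons.

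The mitotic cyclin Ccnb2 and the mitotic kinase Cdk1, partners in 1 complex, differed with cold: Ccnb2 rose in both genotypes and Cdk1 fell in KO. Ccnb2 read 5.78, 5.37 and 5.45 on KO cold arrays against 5.01, 5.55 and 5.59 on WT cold arrays. Ccnb2 gave 3.93, 4.81 and 4.75 on KO room temperature arrays against 4.03, 3.82 and 4.30 on WT room temperature arrays. All cold arrays lay above all room temperature arrays, and the genotypes overlapped at both temperatures. Ccnb2 rose with cold by 1.03 ± 0.24 (SE, adjusted p = 0.0101) in KO, 2.05-fold, by 1.33 ± 0.24 (SE, adjusted p = 0.00251) in WT, 2.52-fold, and by 1.18 ± 0.17 (SE, adjusted p = 0.000239) averaged over both. Its WT call ended with the T cell list mean as a covariate (adjusted p = 0.0537), in a range of 0.000847 to 0.0537, and its KO call held under all alternatives run. Cdk1 read 2.83, 3.45 and 3.19 on KO cold arrays against 3.46, 3.30 and 3.63 on WT cold arrays. Cdk1 gave 4.26, 4.41 and 4.31 on KO room temperature arrays against 3.52, 3.77 and 3.40 on WT room temperature arrays. The KO arrays at room temperature stood above the other 9, which overlapped. Cdk1 was 2.25-fold lower in the cold in KO, a difference of -1.17 ± 0.17 (SE, adjusted p = 0.000459), had -0.10 ± 0.17 (SE, adjusted p = 0.776) in WT, and -0.63 ± 0.12 (SE, adjusted p = 0.00137) averaged over both. KO minus WT was 0.76 ± 0.17 (SE, adjusted p = 0.0728) at room temperature and 0.23 ± 0.12 (SE, adjusted p = 0.41) averaged over both temperatures. The room temperature value passed on leaving out KO cold array 1 (adjusted p = 0.0338, in a range of 0.0338 to 0.21 over all alternatives). That array is outside the room temperature comparison, so the difference stayed at 0.76 and only the estimate of the spread changed.

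Plk1, the polo-like kinase that drives entry into mitosis and spindle assembly, read 3.73, 4.61 and 3.92 on KO cold arrays against 4.09, 3.81 and 3.63 on WT cold arrays. Plk1 gave 3.41, 3.76 and 3.84 on KO room temperature arrays against 3.47, 2.62 and 2.32 on WT room temperature arrays. WT at room temperature was the low group, with 1 array of the 3 overlapping the KO arrays. The cold difference of Plk1 was 0.42 ± 0.29 (SE, adjusted p = 0.392) in KO. It rose with cold in WT, by a dim 1.04 ± 0.29 (SE, adjusted p = 0.0271), and averaged over both genotypes, by 0.73 ± 0.21 (SE, adjusted p = 0.0185). KO minus WT was 0.86 ± 0.29 (SE, adjusted p = 0.259) at room temperature and 0.55 ± 0.21 (SE, adjusted p = 0.226) averaged over both temperatures. The WT call ended without WT room temperature array 2 or 3 or WT cold array 1 or 2 (adjusted p = 0.068 to 0.104). Plk1 also lost this call with the T cell list mean as a covariate or with KO cold array 3 and WT cold array 1 both left out (adjusted p = 0.0622 to 0.112), in a range of 0.00482 to 0.112. The averaged call of Plk1 ended with KO cold array 3 and WT cold array 1 both left out (adjusted p = 0.0574), in a range of 0.00245 to 0.0574. Bub1b, the BubR1 checkpoint kinase at kinetochores, read 2.25, 2.31 and 2.25 on KO cold arrays against 2.60, 2.83 and 3.04 on WT cold arrays. Bub1b gave 2.67, 2.78 and 3.37 on KO room temperature arrays against 2.65, 2.75 and 3.09 on WT room temperature arrays, lowest on the KO cold arrays. It fell with cold in KO, a dim -0.67 ± 0.19 (SE, adjusted p = 0.0275), and the KO minus WT difference in the cold was -0.55 ± 0.19 (SE, adjusted p = 0.211). The KO call ended without KO room temperature array 3 or KO cold array 1, 2 or 3 (adjusted p = 0.0593 to 0.105). Bub1b also lost this call with each array centred on its median, in the 6 arrays of the comparison alone, with the T cell list mean as a covariate or with KO cold array 3 and WT cold array 1 both left out (adjusted p = 0.0628 to 0.0711), in a range of 0.0109 to 0.105.

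The remaining mitotic regulators passed in no comparison. Ccna2, cyclin A2 of S phase and early mitosis, read 4.08, 3.81 and 3.78 on KO cold arrays against 4.19, 4.23 and 4.44 on WT cold arrays. Ccna2 gave 4.36, 3.95 and 4.30 on KO room temperature arrays against 4.12, 3.70 and 3.94 on WT room temperature arrays, with KO below WT in the cold without overlap. Cdc20, an activator of the anaphase-promoting complex, read 3.69, 3.50 and 3.50 on KO cold arrays against 3.66, 3.70 and 3.99 on WT cold arrays. Cdc20 gave 3.57, 3.31 and 4.16 on KO room temperature arrays against 3.70, 3.58 and 3.46 on WT room temperature arrays, with overlapping groups. Aurkb, the Aurora kinase that corrects attachments of the spindle to chromosomes, read 3.41, 2.83 and 2.13 on KO cold arrays against 3.36, 4.61 and 4.11 on WT cold arrays. Aurkb gave 3.49, 3.55 and 3.90 on KO room temperature arrays against 2.76, 3.28 and 3.62 on WT room temperature arrays. The arrays of KO cold and of WT cold were spread widely. Its difference between them, -1.24 ± 0.35 (SE, adjusted p = 0.131), did not pass although it was larger than that of Prc1. Aurka, the spindle pole Aurora kinase, ran over 2.85 to 3.68, Bub1 over 2.48 to 3.20, and Foxm1, the transcription factor of many mitotic genes, over 2.11 to 3.06. Birc5, survivin of the Aurora B complex, stayed at 1.04 to 1.75, below the median signal of every array.

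In the group of kinetochore, spindle and cytokinesis genes, Prc1 was lower in KO than in WT in the cold. Prc1, which bundles microtubules in the midzone of the anaphase spindle, read 2.81, 2.72 and 2.65 on KO cold arrays against 3.81, 4.24 and 3.74 on WT cold arrays. Prc1 gave 3.19, 3.11 and 3.28 on KO room temperature arrays against 2.85, 3.07 and 2.42 on WT room temperature arrays. The WT cold arrays were above all others and the KO cold arrays were below all room temperature arrays except 1 of WT. KO minus WT was -1.20 ± 0.18 (SE, adjusted p = 0.0114) in the cold, 0.41 at room temperature (adjusted p = 0.405) and -0.40 ± 0.12 (SE, adjusted p = 0.148) averaged over both temperatures. The cold difference was -0.46 ± 0.18 (SE, adjusted p = 0.091) in KO and 1.15 ± 0.18 (SE, adjusted p = 0.000833) in WT. These differences are dim, with no group mean of 4 or more. The KO minus WT call in the cold ended in the 6 arrays of the comparison alone, with the T cell list mean as a covariate or with KO cold array 3 and WT cold array 1 both left out (adjusted p = 0.0548 to 0.115), in a range of 0.00669 to 0.115. The difference itself was -1.20 in the 6 arrays, -1.20 with the covariate and -1.22 with the pair left out, against -1.20 as reported. The rise with cold in WT held under all alternatives run.

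Kif11, the motor that separates the spindle poles, read 3.63, 3.33 and 3.83 on KO cold arrays against 3.88, 4.04 and 3.53 on WT cold arrays. Kif11 gave 3.62, 3.08 and 3.84 on KO room temperature arrays against 2.84, 3.19 and 3.04 on WT room temperature arrays, lowest on the WT room temperature arrays but for an overlap with KO. It rose with cold in WT by a dim 0.79 ± 0.21 (SE, adjusted p = 0.0212) and averaged over both genotypes by 0.44 ± 0.15 (SE, adjusted p = 0.0459). The WT call ended without WT room temperature array 1 or 3 or WT cold array 1 or 2 (adjusted p = 0.0512 to 0.0881). Kif11 also lost this call with the T cell list mean as a covariate or with KO cold array 3 and WT cold array 1 both left out (adjusted p = 0.0679 to 0.0808), in a range of 0.0103 to 0.0881. The averaged call of Kif11 ended without WT room temperature array 1 or 3, KO room temperature array 1 or 2, WT cold array 1 or 2 or KO cold array 1 or 3 (adjusted p = 0.0594 to 0.111). Kif11 also lost this call with a trended and robust spread, with array weights, with the replicate number as a block, with the muscle list mean as a covariate, with the T cell list mean as a covariate or with KO cold array 3 and WT cold array 1 both left out (adjusted p = 0.0581 to 0.169), in a range of 0.0225 to 0.169. Nuf2, a subunit of the Ndc80 complex that holds microtubules at the kinetochore, read 2.15, 2.13 and 2.43 on KO cold arrays against 2.41, 2.86 and 2.59 on WT cold arrays. Nuf2 gave 2.28, 2.35 and 2.08 on KO room temperature arrays against 2.08, 2.28 and 2.12 on WT room temperature arrays, with the WT cold arrays high. Its WT call was at the threshold, 0.46 ± 0.15 (SE, adjusted p = 0.0499). It ended without WT room temperature array 1, 2 or 3, KO room temperature array 1, 2 or 3, WT cold array 2 or 3 or KO cold array 1 or 2 (adjusted p = 0.0501 to 0.197). Nuf2 also lost this call with every probe set tested on its own, with each array centred on its median, with a trended and robust spread, with the replicate number as a block, in the 6 arrays of the comparison alone, with the muscle list mean as a covariate or with the T cell list mean as a covariate (adjusted p = 0.0514 to 0.497), in a range of 0.0306 to 0.497.

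None of the other 10 genes of this group passed. Kif23, a midzone motor, read 4.12, 3.79 and 3.67 on KO cold arrays against 3.76, 4.07 and 4.13 on WT cold arrays. Kif23 gave 3.69, 3.92 and 3.96 on KO room temperature arrays against 3.91, 3.45 and 4.05 on WT room temperature arrays, and the groups overlapped. Nusap1, which stabilises spindle microtubules, read 4.06, 3.66 and 3.79 on KO cold arrays against 3.70, 3.75 and 4.02 on WT cold arrays. Nusap1 gave 4.11, 3.97 and 4.28 on KO room temperature arrays against 3.67, 3.73 and 3.57 on WT room temperature arrays. The KO arrays lay above the WT arrays at room temperature, by 0.46 ± 0.14 (SE, adjusted p = 0.218), and the averaged genotype difference was 0.24 ± 0.10 (SE, adjusted p = 0.301). Anln, anillin of the cleavage furrow, read 3.74, 3.39 and 3.69 on KO cold arrays against 3.63, 3.88 and 3.61 on WT cold arrays. Anln gave 4.32, 4.16 and 3.61 on KO room temperature arrays against 3.62, 3.36 and 3.74 on WT room temperature arrays, highest on KO arrays 1 and 2 at room temperature. Ndc80, the partner of Nuf2, read 2.16, 3.39 and 3.26 on KO cold arrays against 3.73, 3.85 and 3.83 on WT cold arrays. Ndc80 gave 3.70, 4.35 and 3.58 on KO room temperature arrays against 2.57, 2.87 and 3.88 on WT room temperature arrays. All KO cold arrays lay below all WT cold arrays, and 1 WT array at room temperature lay within the range of the KO arrays. Kif20a, a motor of late mitosis, had a dim KO minus WT difference of -0.60 ± 0.19 (SE, adjusted p = 0.168) in the cold, without overlap of the arrays. Over the 12 arrays Tpx2, which brings Aurora A to the spindle, ran over 2.05 to 2.90. Cenpf and Cenpe, both of the outer kinetochore, ran over 2.20 to 2.85 and 2.09 to 2.65. The chromosome motor Kif4 stayed at 1.26 to 1.92, below the median signal of every array, and the furrow regulator Ect2 ran over 3.03 to 4.17.

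Mki67, whose protein Ki-67 coats mitotic chromosomes and is the usual stain for cycling cells, read 4.16, 4.23 and 4.19 on KO cold arrays against 4.53, 5.08 and 5.35 on WT cold arrays. Mki67 gave 4.83, 4.81 and 4.62 on KO room temperature arrays against 4.17, 4.46 and 3.91 on WT room temperature arrays. The KO arrays lay above the WT arrays at room temperature and below them in the cold, in both cases without overlap. Mki67 was 1.74-fold higher in the cold in WT, a difference of 0.80 ± 0.20 (SE, adjusted p = 0.0137), while in KO all cold arrays lay below all room temperature arrays, with a difference of -0.56 ± 0.20 (SE, adjusted p = 0.0686). KO minus WT was -0.79 ± 0.20 (SE, adjusted p = 0.0897) in the cold and 0.57 ± 0.20 (SE, adjusted p = 0.271) at room temperature. The WT call ended without WT room temperature array 3 or WT cold array 2 or 3 (adjusted p = 0.0528 to 0.0642). Mki67 also lost this call with the muscle list mean as a covariate or with the T cell list mean as a covariate (adjusted p = 0.0516 to 0.119), in a range of 0.00335 to 0.119. Top2a, the topoisomerase that untangles sister chromatids, read 2.88, 2.58 and 2.58 on KO cold arrays against 2.69, 3.55 and 3.56 on WT cold arrays. Top2a gave 3.05, 3.12 and 3.08 on KO room temperature arrays against 2.67, 2.71 and 2.81 on WT room temperature arrays, with WT cold array 1 apart from the other WT cold arrays. KO minus WT in the cold was -0.58 ± 0.20 (SE, adjusted p = 0.212) and, without WT cold array 1, -0.87 with an adjusted p of 0.0405.

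**Figure D2:**
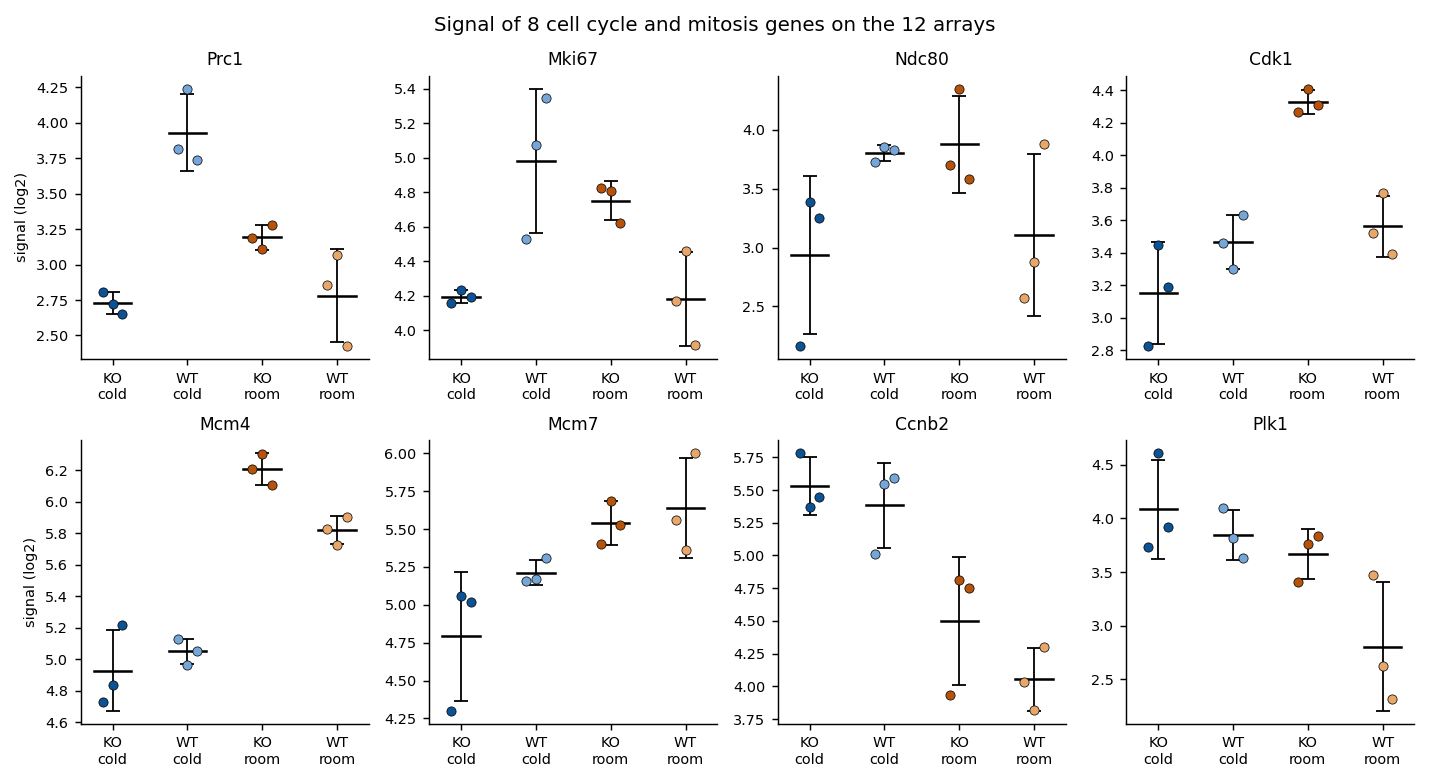
Log2 signal of 8 members on the 12 arrays, 1 panel per gene with its own y axis that does not start at 0, groups KO cold, WT cold, KO room temperature and WT room temperature on the x axis, points for arrays and a bar with whiskers for the mean ± SD (n = 3). Prc1 and Mki67 are low on KO cold and high on WT cold arrays, Cdk1 is high on KO room temperature arrays, Mcm4 is lower in both cold groups, and Ccnb2 is higher in both.

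The upstream sequences of 4 members are shown because these genes had contrasting patterns of group means. In Prc1 and Mki67 the genotype differences had opposite signs at the 2 temperatures, and that of Prc1 in the cold alone passed the test. Ccnb2 was higher in the cold and Cdk1 lower in KO in the cold. Each sequence is the 250 bases before a start of the gene listed by RefSeq on GRCm38.p6, written 5′ to 3′ on its strand. Such an entry was found for 37 of the 43 members. A listed start can lie inside the annotated gene. The stretch of Mki67 covers 135716380 to 135716629, while the gene, on the minus strand, ends at 135716450. That of E2f1, counted below, lies wholly inside, at 154569427 to 154569676 in a gene of 154559400 to 154569892. Capitals mark 3 motifs known from cell cycle promoters, searched on both strands: the CCAAT box (CCAAT, or ATTGG on the other strand), the CHR element (TTTGAA, or TTCAAA) and 3 forms of the E2F site. The first form was TTCCCGC, which reads as GCGGGAA on the other strand. The second form was TTCGCGC, which reads as GCGCGAA on the other strand. The last form was TTGGCGC, which reads as GCGCCAA on the other strand.
Prc1, chr7:80294201-80294450, plus strand: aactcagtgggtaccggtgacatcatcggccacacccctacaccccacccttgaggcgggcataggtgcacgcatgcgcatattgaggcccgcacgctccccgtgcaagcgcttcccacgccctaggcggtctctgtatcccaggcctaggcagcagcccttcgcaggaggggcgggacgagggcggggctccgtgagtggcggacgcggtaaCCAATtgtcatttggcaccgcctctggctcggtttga
Mki67, chr7:135716380-135716629, minus strand: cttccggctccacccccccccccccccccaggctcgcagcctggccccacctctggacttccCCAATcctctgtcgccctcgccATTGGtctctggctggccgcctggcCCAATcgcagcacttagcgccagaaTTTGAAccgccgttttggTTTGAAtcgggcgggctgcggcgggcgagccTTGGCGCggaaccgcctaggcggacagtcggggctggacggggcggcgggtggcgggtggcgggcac
Ccnb2, chr9:70421555-70421804, minus strand: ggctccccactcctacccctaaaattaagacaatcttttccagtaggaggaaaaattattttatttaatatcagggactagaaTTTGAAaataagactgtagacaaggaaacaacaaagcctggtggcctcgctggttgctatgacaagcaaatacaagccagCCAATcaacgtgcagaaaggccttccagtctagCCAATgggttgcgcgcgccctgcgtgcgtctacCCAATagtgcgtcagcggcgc
Cdk1, chr10:69352913-69353162, minus strand: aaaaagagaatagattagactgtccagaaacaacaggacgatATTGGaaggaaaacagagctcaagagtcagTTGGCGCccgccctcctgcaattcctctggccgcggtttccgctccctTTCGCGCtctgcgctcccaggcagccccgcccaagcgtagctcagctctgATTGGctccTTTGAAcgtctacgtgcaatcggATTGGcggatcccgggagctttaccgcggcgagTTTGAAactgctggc
The CCAAT box was found in 27 of the 37 members (73.0%) and in 34.5% of 27025 promoters of all genes, a CHR element in 9 (24.3% against 16.3%), and an E2F site in 9 (24.3% against 6.79%). Mki67 holds 3 CCAAT boxes, 2 CHR elements and 1 E2F site, Cdk1 3, 2 and 2, Ccnb2 3 CCAAT boxes and 1 CHR element, and Prc1 a single CCAAT box within these 250 bases. These counts depend on the window. With the 50 bases after the start that the RefSeq entries also hold, a window added after seeing the data, the shares were 18 of 37 members (48.6% against 18.1% of all genes) for the CHR element, 12 of 37 members (32.4% against 8.21% of all genes) for E2F sites and 27 of 37 members (73% against 37.9% of all genes) for the CCAAT box. In Prc1 a CHR element crosses the end of the stretch printed, with 5 of its 6 bases inside. A match describes the sequence alone.

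Between the genotypes the members leaned to opposite sides at the 2 temperatures. In the cold, KO minus WT was below 0 in 34 of 43 members and above 0 in 9, with a median of -0.22 (all genes 0.00956, with 48.4% below 0). The KO arrays lay wholly below the WT arrays in 13 members (all genes 11.1%) and wholly above them in 0 (all genes 9.55%). At room temperature it was above 0 in 37 members and below 0 in 6, with a median of 0.27 (all genes 0.00852, with 51.4% above 0). The KO arrays lay wholly above in 11 members (1997 of all 22180 genes) and wholly below in 0 (1768 of all 22180 genes, and 17.0% in either direction). By role, the medians in the cold were -0.24 in the kinetochore and spindle genes, -0.22 in the mitotic regulators, -0.12 in the replication genes and -0.10 in the G1 to S regulators. At room temperature they were 0.27 in the kinetochore and spindle genes, 0.29 in the mitotic regulators, 0.15 in the replication genes and 0.20 in the G1 to S regulators. In the 13 members with a mean of at least 4 the median was -0.22 in the cold and 0.15 at room temperature. All genes of at least 4 leaned the same way, with medians of -0.08 (60.7% below 0) and 0.03 (54.7% above 0). In the 30 members under 4 the medians were -0.22 in the cold and 0.27 at room temperature. All genes under 4 had 0.06 and -0.0081. Averaged over both temperatures the members' median was 0.0039, with 22 above and 21 below 0. In the cold 2 members, Prc1 and Top2a, passed without WT cold array 1. At room temperature Cdk1 alone passed without KO cold array 1, an array outside that comparison.

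**Figure D3:**
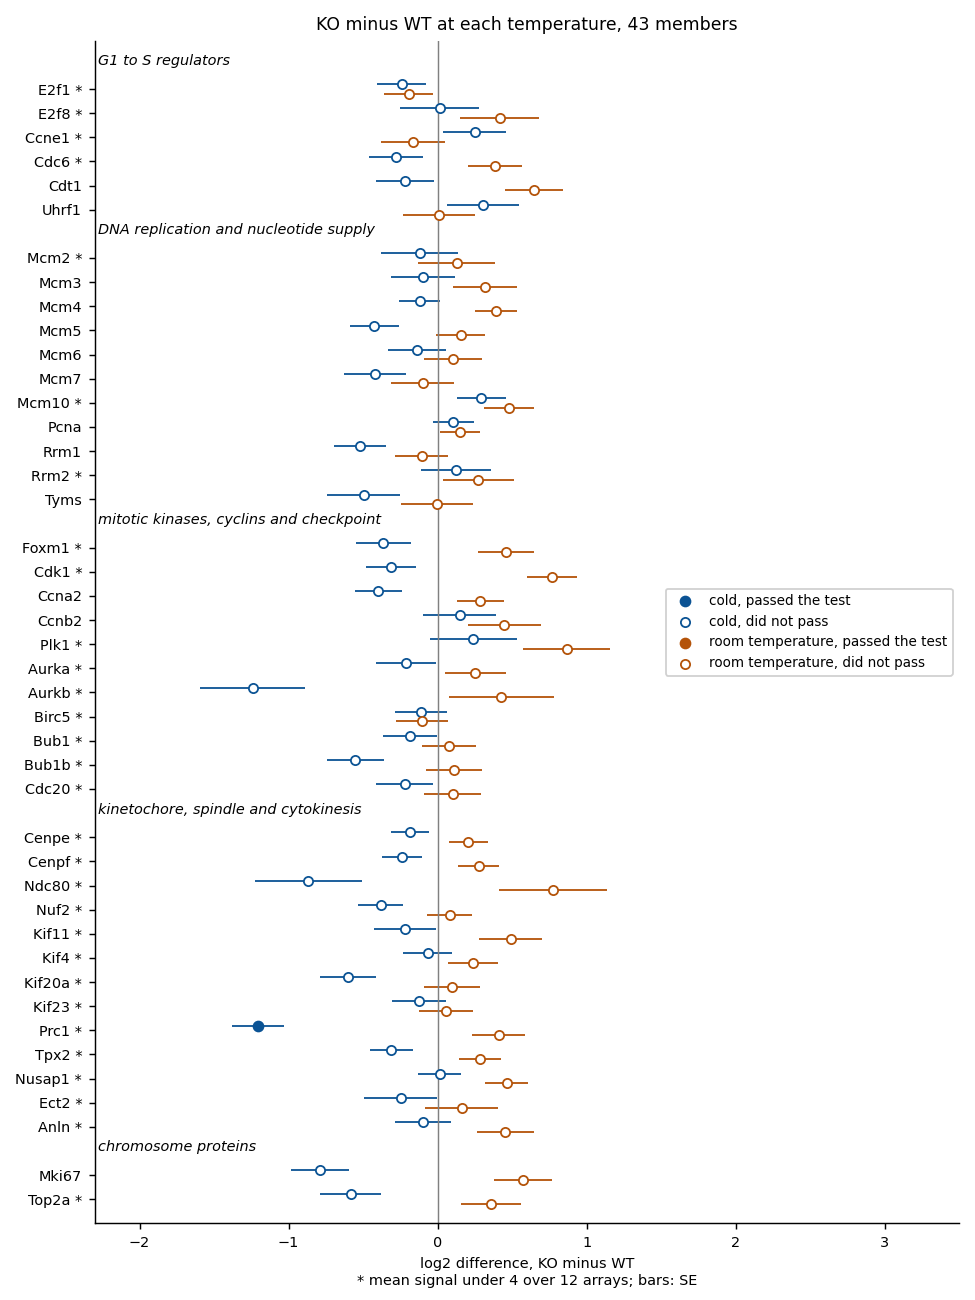
KO minus WT difference in log2 signal for each of the 43 members, grouped by role, in the cold (blue) and at room temperature (orange), with bars for the SE and filled points for an adjusted p under 0.05. An asterisk marks a member with a mean signal under 4. Prc1 in the cold is the filled point, and 34 of the cold points lie left of 0 and 37 of the room temperature points right of it.

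Cold exposure likewise had different signs in the genotypes. In KO, cold minus room temperature was below 0 in 32 of 43 members, with a median of -0.19 (all genes 0.00388). Of the 6 members called, 5 were lower in the cold (Mcm4, Cdk1, Mcm5, Mcm7 and Bub1b, against 10.8% of all genes) and 1, Ccnb2, was higher (all genes 8.34%). In WT it was above 0 in 32 members, with a median of 0.25 (all genes -0.02). Of the 10 called, 8 were higher (Prc1, Ccnb2, Mcm10, Mki67, Kif11, Plk1, Cdt1 and Nuf2, against 9.39% of all genes) and 2, Mcm4 and Ccne1, were lower (all genes 7.98%). The cold arrays lay wholly below those at room temperature in 13 members in KO (all genes 17.2%) and wholly above in 2 (all genes 14.4%). In WT they lay wholly above in 17 (all genes 18.8%) and wholly below in 3 (all genes 18.0%). The WT count was 5 without WT cold array 2, 6 without WT room temperature array 3 and 2 with the T cell list mean as a covariate. With that covariate the SE of the 10 differences was 1.13 to 1.36 times as large. Of the 8 calls lost with it, 4 had a larger difference than without it (Ccne1, Mcm10, Plk1 and Kif11, such as 1.25 against 1.04 for Plk1) and 4 a smaller one (Ccnb2 at 0.94 against 1.33, Mki67 at 0.72 against 0.80, Cdt1 at 0.39 against 0.68 and Nuf2 at 0.23 against 0.46). Mcm4 and Ccnb2 were the members that passed, in the same direction, in both genotypes. The KO and WT differences use separate arrays, but each shares its room temperature arrays and its cold arrays with the genotype comparisons at those temperatures. The genotype differences, the cold differences and the difference of differences are formed from the same 4 group means, so they are not separate findings.

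**Figure D4:**
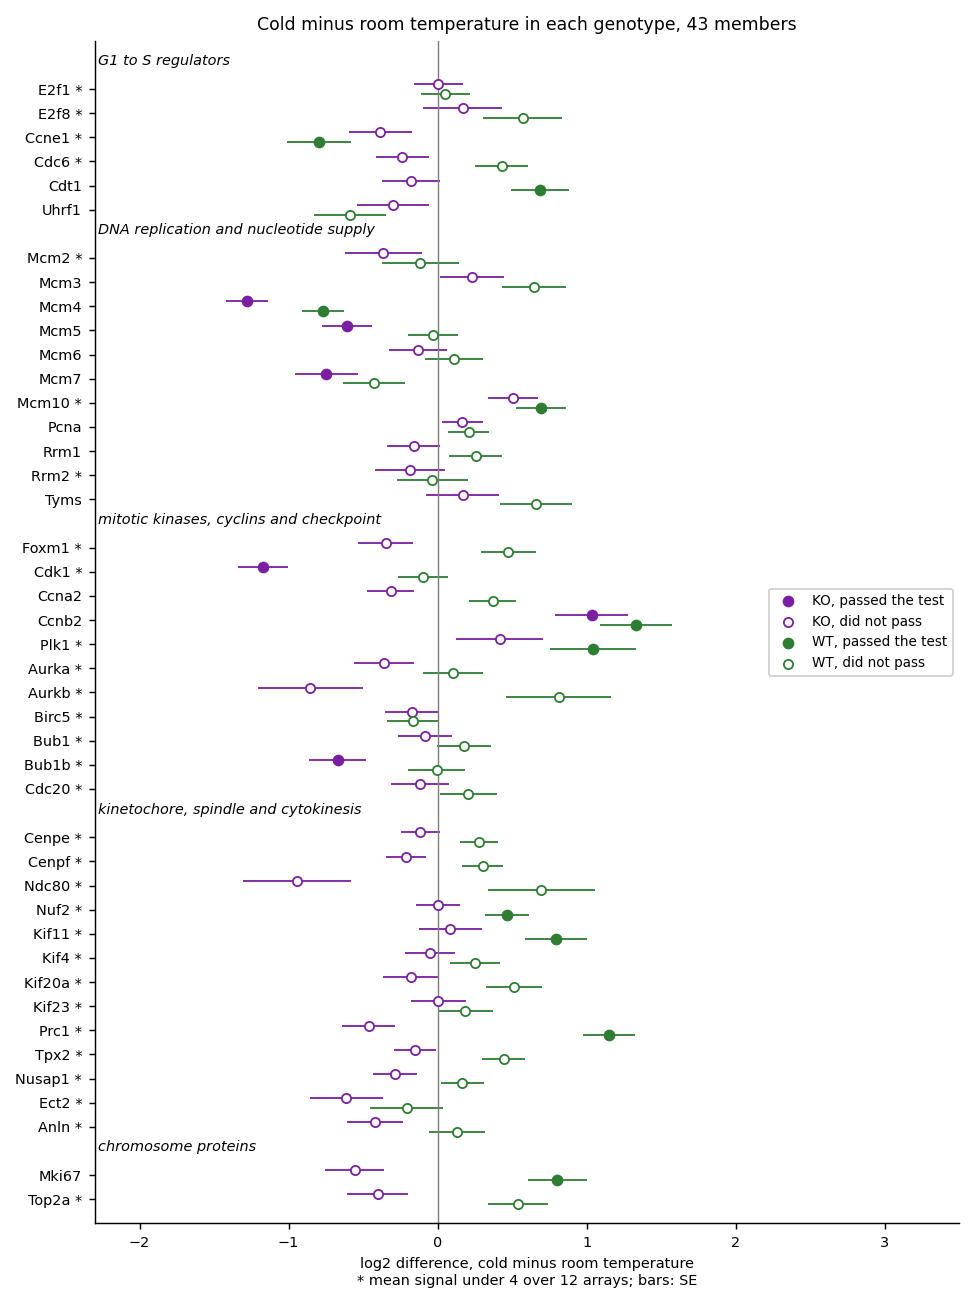
Cold minus room temperature difference in log2 signal for each of the 43 members, grouped by role, in KO (purple) and WT (green), with bars for the SE and filled points for an adjusted p under 0.05. An asterisk marks a member with a mean signal under 4. The KO point lies left of the WT point in 41 of 43 members, and Ccnb2 and Mcm4 are filled in both genotypes.

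The difference of these differences, KO minus WT in the cold less KO minus WT at room temperature, was below 0 in 41 of 43 members, or 95.3%, against 51.4% of all genes, and its median was -0.46, against -0.01. It passed the test in 0 members (0.0271% of all genes), with 19 members at an unadjusted p under 0.05, all of them below 0. Of all 22180 genes, 1309 had such a p with a difference below 0, and 10.5% in either direction. The smallest p was that of Prc1, at -1.61 ± 0.25 (SE, adjusted p = 0.057), for which array weights gave an adjusted p of 0.0426 in a range of 0.0426 to 0.549 over the alternatives. Next came Mki67 at -1.36 ± 0.28 (SE, adjusted p = 0.133) and Cdk1 at -1.08 ± 0.24 (SE, adjusted p = 0.17). Aurkb had -1.67 ± 0.50 (SE, adjusted p = 0.29), Top2a -0.94 ± 0.29 (SE, adjusted p = 0.298) and Ndc80 -1.64 ± 0.51 (SE, adjusted p = 0.306). The 2 members above 0 were Ccne1, at 0.41, and Uhrf1, at 0.29. All 11 replication genes lay below 0, with a median of -0.32, as did all 11 mitotic regulators (-0.62), all 13 kinetochore and spindle genes (-0.51) and both chromosome proteins (-1.15).

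The sign of this difference also varied with brightness over the whole array. Of all genes with a mean of at least 4, 63.8% lay below 0, with a median of -0.12, and of those under 4, 40.8%, with a median of 0.07. Among the members it was below 0 in 12 of 13 at or above 4, with a median of -0.42, and in 29 of 30 under 4, with a median of -0.46. Centring each array on its median added 0.10 to this difference for every gene and left 38 of 43 members below 0, with a median of -0.36.

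Markers of other cell types moved with the members in part. The T cell list, of which 9 of 12 genes were measured and 7 had a mean under 4, averaged 3.17, 2.97 and 3.34 on KO cold arrays against 3.22, 3.90 and 3.46 on WT cold arrays. The T cell list gave 3.24, 3.80 and 3.25 on KO room temperature arrays against 2.99, 2.89 and 3.18 on WT room temperature arrays. Its KO arrays lay above the WT arrays at room temperature and overlapped with them in the cold, and its difference of differences was below 0 in 9 of 9 genes, with a median of -0.63. The defining marker Cd3e read 5.52, 5.26 and 6.13 on KO cold arrays against 5.02, 6.18 and 5.85 on WT cold arrays. Cd3e gave 5.20, 6.80 and 5.05 on KO room temperature arrays against 4.65, 5.10 and 5.36 on WT room temperature arrays, with overlapping groups, and Cd8a, the marker of cytotoxic T cells, had a KO minus WT difference of 0.99 at room temperature (adjusted p = 0.0208) and -0.35 in the cold (adjusted p = 0.358). With the T cell mean as a covariate the members' difference of differences had a median of -0.38, with 38 of 43 below 0. The macrophage list, measured in 14 of 14 genes, averaged 6.33, 6.72 and 7.11 on KO cold arrays against 6.23, 6.56 and 6.32 on WT cold arrays. The macrophage list gave 6.34, 6.51 and 6.33 on KO room temperature arrays against 5.98, 5.59 and 5.83 on WT room temperature arrays, so that KO was above WT at room temperature and not below it in the cold. The difference of differences of the macrophage list was below 0 in 8 of 14 genes, with a median of -0.55. The B cell list stayed at 2.15 to 2.60. The list of adipocyte progenitors and fibroblasts averaged 6.91 to 7.48 over all arrays, with overlapping groups. Its group means had the same order as those of the members and of the T cell list. They were 7.07 in KO cold and 7.21 in WT cold, and 7.19 in KO and 7.03 in WT at room temperature. Its difference of differences was below 0 in 8 of 9 genes, with a median of -0.27. The endothelial list averaged 8.50, 8.66 and 8.69 on KO cold arrays against 8.79, 8.83 and 8.87 on WT cold arrays. The endothelial list gave 8.52, 8.48 and 8.80 on KO room temperature arrays against 8.75, 8.43 and 8.73 on WT room temperature arrays, so that KO was below WT in the cold without overlap, and the genotypes overlapped at room temperature. In the endothelial list the difference of differences was below 0 in 5 of 10 genes, with a median of -0.07. In the neutrophil list it was below 0 in 3 of 11 genes, with a median of 0.58. In the skeletal muscle list, whose arrays lay far apart within every group, it was below 0 in 15 of 16 genes, with a median of -2.42. With the skeletal muscle mean as a covariate the members' median was -0.47, with 40 of 43 below 0. The part of any of these cell types in the members' differences was not tested. The T cell mean came from the same arrays and had its group means in the order of the members. A fit with it as a covariate therefore cannot separate T cell content from the groups.

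Of 73 other cell cycle genes, listed as G1 cyclins and CDKs, CDK inhibitors, the Rb, E2F and DREAM families, checkpoint genes and further S phase and mitosis genes, 67 were measured. Between KO and WT, 2 of the 67, E2f3 and Cdkn1c, passed in the cold (0.911% of all genes). The same 2 passed on the average of both temperatures (1.63% of all genes). At room temperature 0 passed (0.550% of all genes), and 13 of the 67 had an unadjusted p under 0.05 (all genes 11.4%). E2f3, an activating E2F factor, read 6.20, 6.0 and 5.68 on KO cold arrays against 5.03, 4.97 and 4.77 on WT cold arrays. E2f3 gave 5.09, 5.38 and 5.60 on KO room temperature arrays against 4.64, 4.76 and 4.83 on WT room temperature arrays. All KO arrays lay above all WT arrays. It was higher in KO by 1.04 ± 0.17 (SE, adjusted p = 0.0143) in the cold, 2.05-fold, and by 0.82 ± 0.12 (SE, adjusted p = 0.00463) on average. Cdkn1c, the CDK inhibitor p57, read 4.55, 4.68 and 3.62 on KO cold arrays against 5.61, 5.32 and 5.88 on WT cold arrays. Cdkn1c gave 5.16, 5.05 and 5.05 on KO room temperature arrays against 6.35, 5.83 and 5.91 on WT room temperature arrays. Its KO arrays lay below its WT arrays at both temperatures, with differences of -1.32 ± 0.25 (SE, adjusted p = 0.0328) in the cold, 2.5-fold lower, and -1.13 ± 0.18 (SE, adjusted p = 0.00817) on average. The call of E2f3 in the cold ended without WT cold array 1, 2 or 3 (adjusted p = 0.0598 to 0.0676). E2f3 also lost this call in the 6 arrays of the comparison alone, with the T cell list mean as a covariate or with KO cold array 3 and WT cold array 1 both left out (adjusted p = 0.0604 to 0.0859), in a range of 0.00762 to 0.0859. That of Cdkn1c ended without WT cold array 1, 2 or 3 or KO cold array 3 (adjusted p = 0.0599 to 0.138). Cdkn1c also lost this call with the replicate number as a block, in the 6 arrays of the comparison alone, with the T cell list mean as a covariate or with KO cold array 3 and WT cold array 1 both left out (adjusted p = 0.0533 to 0.162), in a range of 0.0176 to 0.162. Both averaged calls held under all alternatives run. The direction of E2f3 and Cdkn1c was the same at both temperatures, with adjusted p of 0.558 and 0.739 for the difference of differences.

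Among the other cell cycle genes, counts passed for cold are read against 19.2% of all genes in KO and 17.4% in WT, or 35.8% in KO and 32.4% in WT of genes with a mean of at least 4. Of the 7 measured CDK inhibitors, 5 passed in KO and 3 in WT, of the 13 Rb, E2F and DREAM genes 8 in KO and 8 in WT, of the 6 G1 cyclins and CDKs 2 in KO and 3 in WT, and of the 15 checkpoint genes 4 in KO and 3 in WT. The 5 CDK inhibitors called in KO were 1 higher and 4 lower in the cold, and the 8 Rb, E2F and DREAM genes 4 higher and 4 lower. Of the 26 further S phase and mitosis genes 5 passed in KO and 4 in WT, all of them lower in the cold. Cdkn1a, the p53 target and CDK inhibitor p21, read 12.50, 12.66 and 12.60 on KO cold arrays against 12.55, 12.52 and 12.55 on WT cold arrays. Cdkn1a gave 10.59, 10.27 and 10.62 on KO room temperature arrays against 9.80, 10.84 and 10.85 on WT room temperature arrays. Cold arrays were far above room temperature arrays in both genotypes, by 2.10 ± 0.23 (SE, adjusted p = 9.61e-05) in KO, 4.27-fold, and 2.04 ± 0.23 (SE, adjusted p = 0.000139) in WT, 4.12-fold. Cdkn2c, the CDK4 and CDK6 inhibitor p18, averaged 6.51 in the cold and 8.01 at room temperature in KO, a fall of 2.83-fold (adjusted p = 3.83e-05), and 6.42 and 7.96 in WT, a fall of 2.92-fold (adjusted p = 4.33e-05). E2f7, the repressing partner of E2f8, rose 2.88-fold in KO and 2.58-fold in WT (adjusted p = 5.13e-05 and 0.000126). Rbl2, the p130 pocket protein of resting cells, fell 2.24-fold in KO and 2.28-fold in WT (adjusted p = 0.000191 and 0.000201).

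Among the genes with the smallest p in 1 genotype, Mad2l1, the checkpoint protein Mad2, had a cold difference of -1.72 ± 0.21 (SE, adjusted p = 0.000164) in KO and -0.77 ± 0.21 (SE, adjusted p = 0.0245) in WT. Rbl1, the pocket protein p107, had -1.61 ± 0.20 (SE, adjusted p = 0.000213) in KO and -0.92 ± 0.20 (SE, adjusted p = 0.00796) in WT. Cdk6, a G1 kinase, had -0.98 ± 0.19 (SE, adjusted p = 0.00316) in KO and -1.49 ± 0.19 (SE, adjusted p = 0.000252) in WT, and Ccnd1, cyclin D1, 0.81 ± 0.31 (SE, adjusted p = 0.0895) in KO and 1.71 ± 0.31 (SE, adjusted p = 0.00228) in WT. The difference between the genotypes in these responses did not pass, with adjusted p of 0.306 for Mad2l1, 0.429 for Rbl1, 0.526 for Cdk6 and 0.501 for Ccnd1. The mean of the 26 further S phase and mitosis genes was 2.78, 2.85 and 2.87 on KO cold arrays against 2.94, 3.0 and 3.01 on WT cold arrays. The same genes gave 3.12, 3.13 and 3.27 on KO room temperature arrays against 3.06, 2.98 and 3.19 on WT room temperature arrays. As in the 43 members, KO lay below WT in the cold without overlap. At room temperature the genotypes overlapped, and the difference of differences was below 0 in 18 of 26, with a median of -0.29.

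**Figure D5:**
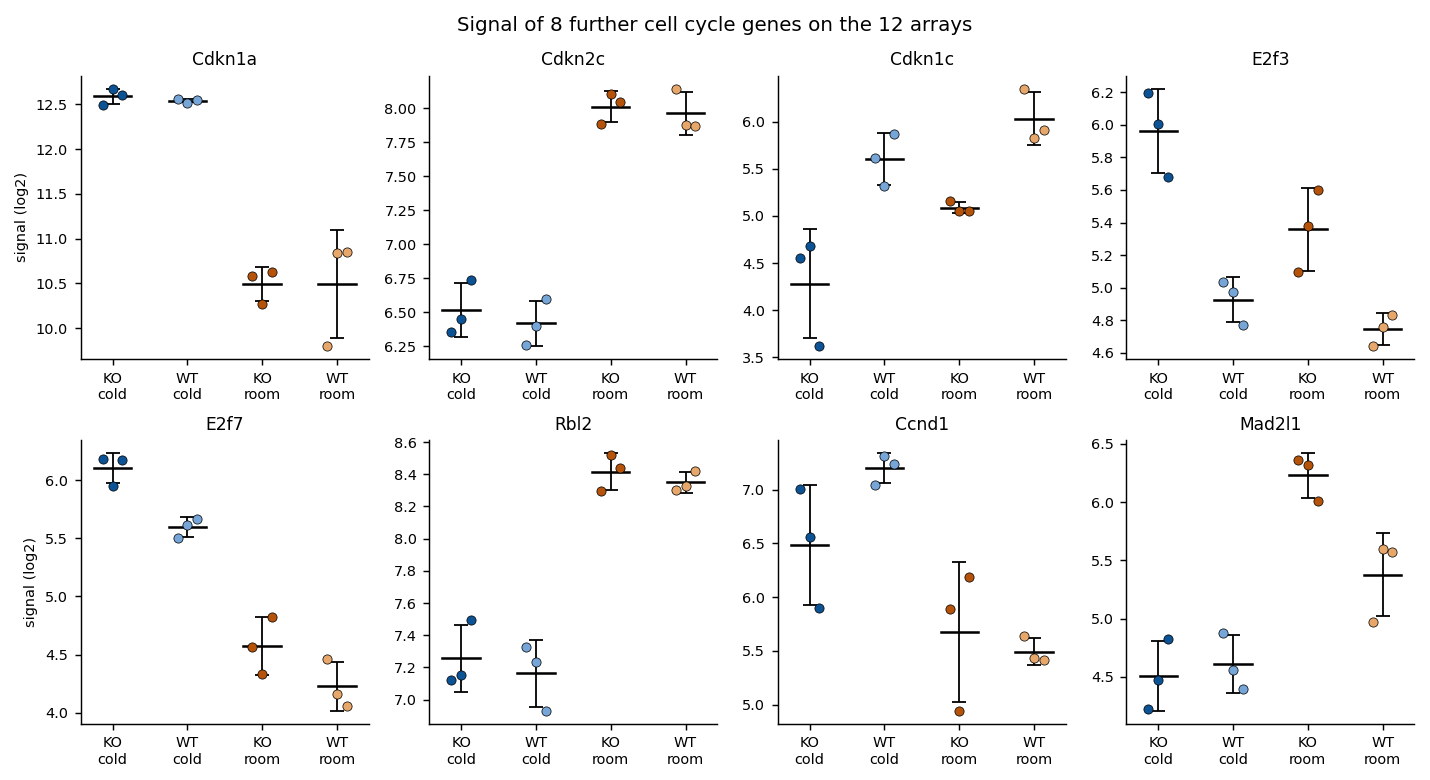
Log2 signal of 8 cell cycle genes outside the 43 members on the 12 arrays, 1 panel per gene with its own y axis that does not start at 0, groups KO cold, WT cold, KO room temperature and WT room temperature on the x axis, points for arrays and a bar with whiskers for the mean ± SD (n = 3). Cdkn1a and E2f7 are higher and Cdkn2c and Rbl2 lower in both cold groups, while E2f3 is higher and Cdkn1c lower on KO than on WT arrays at each temperature.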

How the data were processed

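Total RNA of brown adipose tissue (400 ng per sample) was labelled with biotin after the Affymetrix WT Plus protocol and hybridised to 12 arrays, 3 per group. The table deposited by the authors holds signals on a log2 scale. The submitters' processing notes name oligo, RMA and limma, with no version, and the genome build is not given in the sources used here. RMA corrects background, forces the arrays to 1 distribution and summarises probes, which compresses differences of weak signals and removes any shift common to all genes. The log base is not written with the values and was checked against their range. Groups came from titles, source and characteristics. Of 41345 probe sets, 23521 carried exactly 1 gene symbol in the platform annotation, 1814 several and 16010 none. The brightest probe set stood for each of 1082 genes with several, which left 22180 genes, unfiltered. limma 3.58.1 in R 4.3.3 fitted 1 mean per group over all 12 arrays (lmFit and eBayes), with 7 comparisons and Benjamini-Hochberg adjustment over 22180 genes, and was tested on simulated data. Arrays give no counts, so their number and the weakness of a signal limit the precision.

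The members and the lists were chosen with earlier results of these data known. Each member may be named. Array values are given for members that passed in any comparison and the 3 brightest of each of 5 roles, and full statistics for the 6 smallest p per comparison. Aurkb and Ndc80 met neither rule for array values, and theirs are given in addition. Of the other cell cycle genes up to 6 that passed are named per comparison. Promoters are those of RefSeq, and where 2 were listed for a gene the first was used. The alternatives changed the probe set rule, the filter on weak signals, the scaling, the spread, array weights, a replicate block, the arrays in the fit, 2 covariates and single arrays.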

Additional observations from a re-analysis of the deposited data

Results flagged for a closer look

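In 4 members every array of a group moved one way in 1 genotype or at 1 temperature, and the opposite way in the other. Prc1, Mki67 and Tpx2 lay higher on all KO than on all WT arrays at room temperature and lower on all of them in the cold, as did 266 of all genes (1.2%). The same 3 genes and Cenpf lay lower in the cold than at room temperature on all KO arrays and higher on all WT arrays, as did 157 of all genes (0.708%). The tested difference of differences was -1.61 for Prc1 (adjusted p = 0.057), -1.36 for Mki67 (adjusted p = 0.133), -0.59 for Tpx2 (adjusted p = 0.343) and -0.51 for Cenpf (adjusted p = 0.383), so that none passed. Of the 4, Mki67 alone had a mean signal of at least 4.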

How the results depend on the processing

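Of 49 member differences rerun in up to 25 alternatives, 26 passed as reported, and 10 of these passed in every alternative run. None of the 49 changed sign. They were taken because they passed or were among the 6 smallest p of their comparison, so a change of sign was unlikely from the start. Alternatives that changed only the spread, or left out arrays outside the comparison, could not move the difference itself. That of Nuf2 for cold in WT, for example, stayed at 0.46 without KO cold array 1. Of the 23 that had not passed, 2 did in some alternative. Over all 301 differences of the 43 members, 275 had not passed, and 27 of these, in 20 members, did in some alternative: 7 for cold in KO, 10 for cold in WT, 7 for cold averaged, 1 for KO minus WT at each temperature and 1 difference of differences. Among them Ect2 had an adjusted p of 0.000912 for cold averaged and 0.00672 in KO without WT room temperature array 2, and Top2a 0.00335 in WT without WT cold array 1. WT room temperature array 2 is outside the cold comparison in KO, so there the difference of Ect2 stayed at -0.61. The filter on genes of a mean signal of at least 5 keeps 5 members, Mcm4, Mcm7, Pcna, Rrm1 and Tyms, all of them replication genes. Their median was -0.0029 for KO minus WT at room temperature, which is the value of Tyms and has the other sign than the median of all 43. It was -0.42 in the cold and -0.25 averaged over both. The numbers passed were then 0 for KO minus WT in the cold and 2 for cold minus room temperature in KO, 2 in WT and 2 averaged. With genes of at least 4, which keeps 13 members, the median at room temperature was 0.15, and 0 passed in the cold and 6 for cold in WT. Centring each array gave medians of 0.19 at room temperature, -0.11 for cold in KO and -0.36 for the difference of differences, for which cyclic loess gave -0.39 and the T cell covariate -0.38. That covariate left 0 members between KO and WT in the cold and 2 for cold in WT. In the cold 0 members passed in the 6 arrays alone, and 0 with KO cold array 3 and WT cold array 1 left out. Array weights let 1 member pass the difference of differences. Leaving out single arrays gave 0 to 1 members passed and medians of 0.18 to 0.32 for KO minus WT at room temperature, 1 to 2 members in the cold, 5 to 11 members and medians of 0.24 to 0.35 for cold in WT, and medians of -0.55 to -0.44 for the difference of differences. The T cell covariate and the pair left out were chosen after seeing the data. WT cold array 1 was picked because it lay below the other WT cold arrays in the mean of the members, so that setting was selected on the measured outcome and is no independent check. The cause of these changes was not tested, except that filters drop the weak members by construction.

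The replicate numbers did not pair the arrays: over 18 same-numbered pairs the deviations from the group means correlated at -0.31 to 0.26, and 4 of 12 arrays correlated best with their own number. With the replicate number as a block, 1 member passed between KO and WT in the cold and 0 at room temperature, and the median difference of differences was -0.46. For cold 7 passed in KO, 10 in WT and 10 averaged. Mcm10 was gained in KO (0.0483), Mcm3 in WT (0.026) and Uhrf1 (0.0495) and Bub1b (0.0372) averaged, while Nuf2 was lost in WT and Kif11 averaged (adjusted p). Weak signals limit the 30 members with a mean under 4, and folds are given where a group mean reached 4.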
